A study of Homo sapiens with 8 samples.

Results

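The genes described are the G1 cyclins CCND1, CCND2, CCND3, CCNE1 and CCNE2, their kinase partners CDK2, CDK4 and CDK6, and the pocket proteins RB1 and RBL1. They were chosen by name, as the core of the switch that takes a cell from G1 into S phase. The rule uses no measured value, but it was written with earlier results of these data known, so the counts below describe the members and are not free of selection. All 10 have a probe on the array, and 9 of them were among the 28850 genes tested. LNCaP is an androgen-responsive human prostate cancer cell line. The cells were transfected with 30 nM of an siRNA against the transcription factor GATA2 (siGATA2) or of a scrambled control siRNA (siControl), and total RNA was taken after 72 h. Each group has 4 replicates, each labelled with Cy3 and hybridised to its own one-colour array. The methods do not say whether these replicates are separate transfections. Both groups are transient transfections of 1 cell line with 1 catalogued siRNA product each. The comparison asks how the transcripts of the G1 machinery differed between siGATA2 and siControl cells.

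In G1, D-type cyclins bind CDK4 or CDK6, and cyclin E binds CDK2. These kinases phosphorylate the pocket proteins, which otherwise hold E2F transcription factors in check, and the release of E2F turns on the genes of DNA replication. Much of the control of these kinases acts on the proteins, through inhibitors, activating phosphates and degradation, and none of that is measured on an expression array.

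At the transcript level the kinases and the RBL1 pocket protein were lower in siGATA2 cells, while the D-type cyclins and RB1 did not pass the test. RBL1 was 2.98-fold lower, CDK2 3.29-fold lower, CDK4 2.28-fold lower, CDK6 2.70-fold lower and CCNE2 1.63-fold lower. The CDK6 call was lost under 11 of 22 other ways of processing, and the CCNE2 call was lost with arrays scaled to spiked-in control probes (limma adjusted p = 0.117). In all, 5 of the 9 tested members were lower at a limma adjusted p under 0.05, where 14.2% of all genes tested were lower. No member was higher, where 12.3% of all genes were. With the added condition of a 2-fold change, 4 members were lower, against 7.13% of all genes, and none was higher, against 4.52%. The median log2 fold change of the 9 members was -0.70, and that of all genes tested was 0.088. In RNA from a whole culture, fewer cells in a given phase of the cycle and less RNA per cell cannot be told apart.

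The start regions of RBL1 and CDK4 are shown because these genes had the 2 lowest adjusted p-values among the members and hold the sequence matches found. Both are the 250 bases before the outermost annotated start of the gene, read 5′ to 3′ on the strand of the gene, from RefSeq on GRCh38.p14. The RBL1 window is chr20:37095998-37096247, minus strand, and the CDK4 window is chr12:57752311-57752560, minus strand. Capitals mark matches to an E2F motif (TTTCCCGC, TTTGGCGC, TTTCGCGC or TTTGCCGC), to the GATA motif NGATAN with A or T as its first base and A or G as its last, or to the E-box CACGTG, on either strand.
RBL1: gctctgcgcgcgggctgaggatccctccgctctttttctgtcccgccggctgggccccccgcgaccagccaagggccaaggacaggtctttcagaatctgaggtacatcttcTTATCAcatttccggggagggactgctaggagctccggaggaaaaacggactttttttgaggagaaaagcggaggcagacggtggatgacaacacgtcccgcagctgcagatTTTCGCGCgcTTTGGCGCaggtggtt
CDK4: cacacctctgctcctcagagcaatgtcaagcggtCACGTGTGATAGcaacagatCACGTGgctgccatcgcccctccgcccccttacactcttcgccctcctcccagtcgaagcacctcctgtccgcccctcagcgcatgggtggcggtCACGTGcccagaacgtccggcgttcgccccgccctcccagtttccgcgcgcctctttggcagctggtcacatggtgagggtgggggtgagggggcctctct

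The RBL1 window holds 2 E2F matches close to the start, TTTCGCGC at 19 to 26 bases and TTTGGCGC at 9 to 16 bases before it. Among 24883 windows of the same length, 2.76% held an E2F match. The same window holds a GATA match on the opposite strand, TTATCA, at 133 to 138 bases before the start. The CDK4 window holds CACGTG 3 times, at 96 to 101, 191 to 196 and 211 to 216 bases before the start. The GATA match TGATAG, at 205 to 210 bases, directly follows the farthest of these. A GATA match is common, at 23.1% of all windows, and CACGTG was present in 6.44%. The E-box was chosen for the search after the CDK4 sequence had been read. The windows of CCNE1 and CDK6, the other two members with a window at the gene start, held none of these letters. A match of this kind is a description of the sequence only, and binding was not measured.

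The targeted gene goes first in a knockdown, as the check of the labels. GATA2, read by 1 probe well above background on every array, had log2 signals of 12.61, 12.54, 11.57 and 11.40 on siGATA2 arrays 1 to 4 and 11.74, 11.28, 11.10 and 11.29 on siControl arrays 1 to 4. The difference was 0.68 ± 0.31 (log2, SE, n = 4 arrays a group, limma adjusted p = 0.154), so the probe did not show lower GATA2 in the arrays labelled siGATA2. With array weights, which give less weight to arrays that lie farther from their group over all genes, GATA2 was higher by 1.102 (adjusted p = 0.00194). With arrays scaled to spiked-in control probes the GATA2 difference was 0.034 (adjusted p = 0.985). Every direction given here therefore rests on the sample labels. The LNCaP and luminal prostate markers KLK2, KLK3, TMPRSS2, HOXB13, FOLH1, KRT8 and KRT18 were all 7 well above background on 8 of 8 arrays, with a mean log2 signal of 14.56 to 15.16 on siGATA2 and 15.21 to 15.36 on siControl arrays. Of these markers KLK2 (-1.84), KLK3 (-1.63) and HOXB13 (-0.40) were lower and KRT8 (0.56) was higher in siGATA2 cells (log2 fold changes, limma adjusted p under 0.05). Of 8 tested markers of fibroblasts, leukocytes, endothelium and basal epithelium, 3 were above background on every array, and the mean of the 8 was 6.08 to 6.40 against 6.09 to 6.14. In that list PTPRC and CD68 were higher and VWF was lower in siGATA2 cells; the part of other cells in the results was not tested. The arrays differed in quality: 34459 to 37033 of 42405 probes were well above background on the siGATA2 arrays, but 28560 and 24438 on siControl arrays 1 and 3, whose negative control spots were also the most variable.

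All member values are log2 signals after quantile normalization over the 8 arrays, and each difference subtracts the mean of the siControl arrays from that of the siGATA2 arrays. A level is compared only within a probe, because probes of different genes differ in brightness for reasons other than transcript number. The members are read by 12 probes, of which 11 were well above background on all 8 arrays and none was saturated. CCND1, CDK2 and RB1 are each printed in 10 spots per array, and the spots of 1 probe on 1 array had an SD of 0.025 to 0.117 on the log2 scale. The plot of member signals by array shows each of these values.

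**Figure D1:**
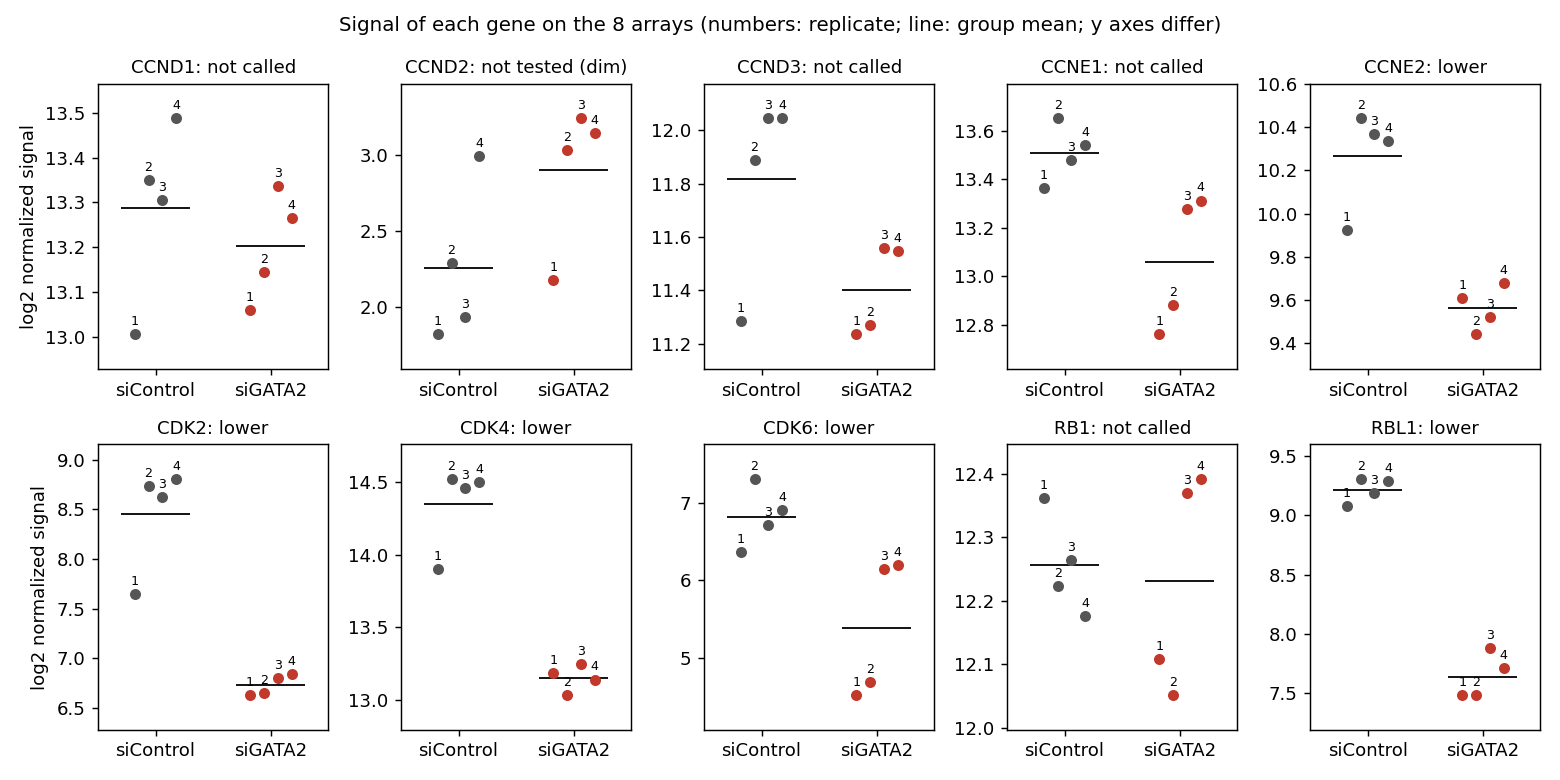
Normalized log2 signal of each of the 10 members (vertical axis, a different range in each panel) on the 4 siGATA2 and 4 siControl arrays; points carry the replicate number and lines are group means. CDK2, CDK4, CDK6, RBL1, CCNE1 and CCNE2 had no overlap between groups, while CCND1, CCND3 and RB1 did; CCND2 was too dim to be tested.

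Among the D-type cyclins, which carry growth signals to CDK4 and CDK6, none passed the test. CCND1 gave 13.06, 13.15, 13.34 and 13.26 on siGATA2 arrays 1 to 4 and 13.01, 13.35, 13.31 and 13.49 on siControl arrays 1 to 4. All siGATA2 values lay inside the siControl range, and the lowest array of all was siControl 1. The difference was -0.086 ± 0.13 (SE, n = 4 a group, 95% interval -0.39 to 0.22, limma adjusted p = 0.666). An interval this wide leaves room for a fall of 0.39, so equal levels were not shown.

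CCND3, the most broadly expressed of the D-type cyclins, had signals of 11.23, 11.27, 11.56 and 11.55 in siGATA2 cells. In siControl cells it had 11.29, 11.89, 12.05 and 12.04. Arrays siControl 2, 3 and 4 lay above every siGATA2 array, and siControl 1 lay among the siGATA2 arrays. The difference was -0.41 ± 0.19 (SE, n = 4 a group, 95% interval -0.86 to 0.034, limma adjusted p = 0.161; exact permutation p = 0.0857). The call hung on that array: without siControl 1 the difference was -0.59 at an adjusted p of 0.0132. Array weights gave -0.65 at an adjusted p of 0.00189.

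CCND2 was barely detected in these cells. Its probe read 2.18, 3.03, 3.24 and 3.14 on the siGATA2 arrays and 1.82, 2.29, 1.94 and 2.99 on the siControl arrays. It was well above background on 1 of 4 siGATA2 arrays and on 0 of 4 siControl arrays. With a mean of 2.58 it fell under the minimum of 3 on the log2 scale, and no fold is given.

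The E-type cyclins, which activate CDK2 late in G1, both had groups that did not overlap, and 1 of the 2 passed the test. CCNE2 had 9.61, 9.44, 9.52 and 9.68 in siGATA2 cells and 9.93, 10.44, 10.37 and 10.34 in siControl cells. Every siGATA2 array was below every siControl array, with siControl 1 the nearest to them. CCNE2 differed by -0.70 ± 0.14 (SE, n = 4 a group, 95% interval -1.02 to -0.38, limma adjusted p = 0.00715). A second, dimmer probe to the same transcript read 5.94 to 6.28 in siGATA2 and 6.62 to 7.15 in siControl cells and gave -0.79 ± 0.14 (SE, adjusted p = 0.00493 over all probes tested).

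CCNE1 had signals of 12.76, 12.88, 13.28 and 13.31 in siGATA2 cells and 13.36, 13.65, 13.48 and 13.54 in siControl cells. The groups were separate by only 0.052, between siGATA2 4 and siControl 1. Its difference of -0.45 ± 0.16 (SE, n = 4 a group, 95% interval -0.81 to -0.090) had a limma adjusted p of 0.0697 and is not called. Counting CCNE1, 6 of 9 members had a siGATA2 range wholly below the siControl range, as did 16.5% of all genes tested, and no member had the reverse, as did 16.2% of all genes. In either direction, 32.6% of all genes had groups that did not overlap. Whether the cyclin E genes changed unequally was tested on the CCNE1 minus CCNE2 difference within each array, which was 0.25 higher in siGATA2 cells (exact permutation p = 0.2).

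The 3 kinases were all lower in siGATA2 cells. CDK2, the partner of cyclins E and A, had signals of 6.63, 6.65, 6.80 and 6.84 in siGATA2 cells and 7.64, 8.73, 8.62 and 8.80 in siControl cells. The siGATA2 arrays agree within 0.22, and siControl 1 lies well below the other siControl arrays while still above all siGATA2 arrays. The difference was -1.72 ± 0.26 (SE, n = 4 a group, 95% interval -2.31 to -1.13, limma adjusted p = 0.00182). Without siControl 1 the fall was -1.99.

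CDK4, which with CDK6 is the kinase that D-type cyclins activate, varied least of the members among siGATA2 arrays (SD 0.089, n = 4). It read 13.19, 13.04, 13.25 and 13.14 in siGATA2 cells and 13.90, 14.52, 14.46 and 14.50 in siControl cells. Again siControl 1 was the lowest control and the groups were apart, here by 0.65. The difference was -1.19 ± 0.16 (SE, n = 4 a group, 95% interval -1.56 to -0.82, limma adjusted p = 0.00105).

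CDK6, the other partner of the D-type cyclins, varied most among siGATA2 arrays (SD 0.909, n = 4). It read 4.52, 4.69, 6.15 and 6.20 on siGATA2 arrays 1 to 4 and 6.36, 7.31, 6.71 and 6.90 on siControl arrays 1 to 4. The siGATA2 arrays fell into pairs, with arrays 1 and 2 lower than arrays 3 and 4 by at least 1.46, and arrays 3 and 4 lay just 0.17 below the nearest control. The difference of -1.43 ± 0.44 (SE, n = 4 a group, 95% interval -2.45 to -0.41, limma adjusted p = 0.0463) passed the threshold narrowly. With a replicate block the adjusted p was 0.0529. Leaving out siGATA2 1 or 2, or any of the 4 siControl arrays, was enough to lose the call, with an adjusted p of 0.0512 to 0.117. A background correction with an offset, which shrinks the fold of dim probes by its construction, gave -0.70 at an adjusted p of 0.0314. The slide holds its arrays in 2 rows, and the CDK6 difference was -1.78 in the first row (siGATA2 1 to 3 against siControl 4) and -0.60 in the second (siGATA2 4 against siControl 1 to 3).

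Of the pocket proteins, RBL1 was lower and RB1 did not pass the test. RB1, the retinoblastoma protein, read 12.11, 12.05, 12.37 and 12.39 in siGATA2 cells and 12.36, 12.22, 12.26 and 12.18 in siControl cells. The siControl values lay inside the siGATA2 range. The difference was -0.026 ± 0.12 (SE, n = 4 a group, 95% interval -0.30 to 0.25, limma adjusted p = 0.893).

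RBL1, known as p107 and itself a textbook target of E2F, read 7.48, 7.49, 7.88 and 7.71 in siGATA2 cells and 9.08, 9.31, 9.19 and 9.29 in siControl cells. The groups were 1.20 apart, the widest gap of any member, and siControl 1 lay close to the other controls. The difference was -1.58 ± 0.13 (SE, n = 4 a group, 95% interval -1.87 to -1.28, limma adjusted p = 9.10e-05). A second probe, designed on another RBL1 transcript, read 5.76 to 5.96 against 6.79 to 7.47 and gave -1.41 ± 0.17 (SE, adjusted p = 0.000637 over all probes tested). On that dimmer probe siControl 1, at 6.79, lay apart from the other controls at 7.42 to 7.47.

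The RB1 minus RBL1 difference within an array was 4.59 ± 0.080 (SD, n = 4) in siGATA2 and 3.04 ± 0.18 (SD, n = 4) in siControl cells. The change of 1.55 had an exact two-sided permutation p of 0.0286, the smallest that 4 arrays against 4 allow, and 0.114 after adjustment over the 4 pairs compared. For CCND1 minus CCND3 the change was 0.33 (exact permutation p = 0.0571, adjusted 0.114). For CDK4 minus CDK6 it was 0.24 (exact permutation p = 0.571, adjusted 0.571), and for CCNE1 minus CCNE2 the adjusted value was 0.267. No pair passed after adjustment, and a single pair at the smallest p cannot go below 0.114. Pairs with CCND2 could not be compared because its probe was too dim.

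**Figure D2:**
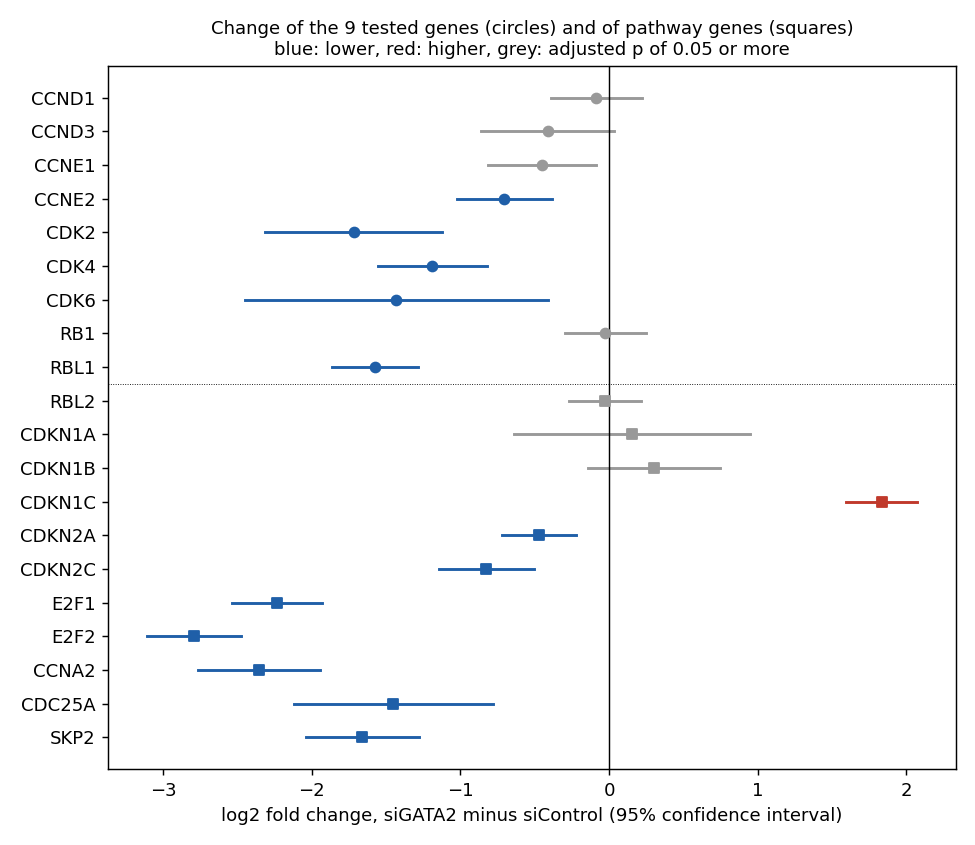
Log2 fold change of siGATA2 against siControl (horizontal axis, with 95% confidence intervals, n = 4 arrays a group) for the 9 tested members (circles) and for the other pocket protein RBL2, CDK inhibitors and selected G1/S genes (squares); blue is lower and red is higher at a limma adjusted p under 0.05, and grey did not pass. CDK2 at -1.72, RBL1 at -1.58, CDK6 at -1.43, CDK4 at -1.19 and CCNE2 at -0.70 are the members in blue, and CDKN1C at 1.83 is the gene in red. The squares are a selection that leaves out SKP1 and LIN37, also higher, CDKN2B and CDKN2D, and most of the lower genes.

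The members shared a pattern among replicates as well as between groups. The siControl 1 array was the lowest of the 4 controls for 8 of the 9 tested members, including all 5 that passed, and RB1 was the exception. Over all genes tested, siControl 1 was the lowest control for 40.4%. Arrays siGATA2 3 and 4 both lay above arrays 1 and 2 for 7 of the 9 members, all but CCNE2 and CDK4, and for 46.0% of all genes. GATA2 itself had the opposite order, with its higher signals on arrays 1 and 2. The part of array quality in these orders was not tested. Without siControl 1, CDK2, CDK4 and CCNE2 had differences of -1.99, -1.34 and -0.82. Each is a larger fall than with it, which follows from leaving out the lowest control. Within the first and the second row of the slide, the differences were -2.11 and -1.49 for CDK2, -1.34 and -1.15 for CDK4, -1.67 and -1.48 for RBL1, and -0.81 and -0.56 for CCNE2.

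The profile of CDK2, the member with the largest fall as reported, was compared with those of the 17857 other genes with a symbol, each as log2 signals relative to its own mean over the 8 arrays. BTG1, a gene known to restrain proliferation, was nearest, with a root mean square difference of 0.071. POLE4, a subunit of DNA polymerase epsilon, followed at 0.097, and RNASE4, a secreted ribonuclease, at 0.117. Their log2 fold changes were -1.72, -1.75 and -1.82. The nearness covers the low siControl 1 array along with the difference between groups. With normexp background correction RBL1 had the largest fall of the members (-1.29 against -1.24 for CDK2), and with array weights CDK6 had it (-2.17 against -2.06).

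Around the members, 56 of 57 listed genes of the same pathway could be tested. Of these, 34 were lower and 3 were higher at the adjusted p, where 14.2% and 12.3% of all genes were, with a median log2 fold change of -0.85. The lists are given one by one, from the inhibitors of the kinases to the genes that E2F turns on. The same shares of all genes, 14.2% lower and 12.3% higher, apply to the counts of each list. A count of 1 gene higher in a list is too small to set apart from that share.

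**Figure D3:**
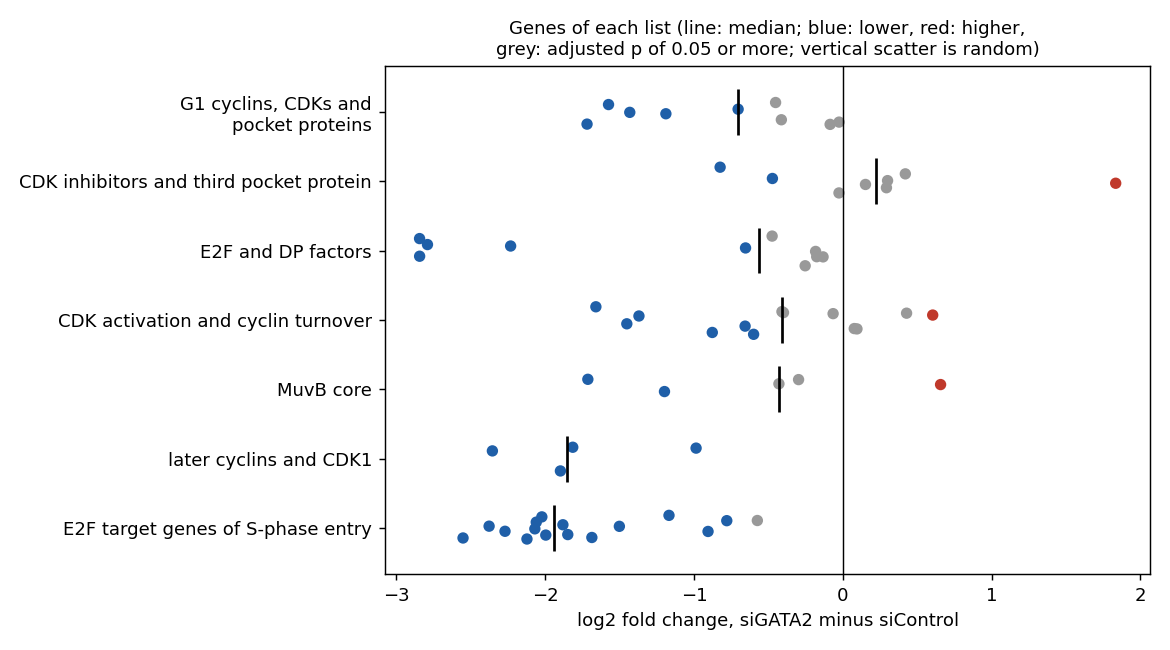
Log2 fold change of siGATA2 against siControl (1 point a gene) for the members and for 6 lists of G1/S genes, with a line at the median of each list. The E2F target genes lie lowest, around a median of -1.94, and the CDK inhibitors spread around a median of 0.22.

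Of the 8 genes in the list of CDK inhibitors and the remaining pocket protein, 1 was higher and 2 were lower, with a median of 0.22. Counts this small lie near the shares of all genes, 12.3% higher and 14.2% lower. CDKN1C (p57), an inhibitor of G1 kinases, had log2 signals of 13.92, 13.81, 14.04 and 14.01 in siGATA2 and 12.05, 12.14, 12.23 and 12.03 in siControl cells. Every siGATA2 array was above every control, by 1.83 ± 0.10 on average (SE, n = 4 a group, limma adjusted p = 2.32e-05). With arrays scaled to spiked-in control probes the CDKN1C value was 1.17 and did not pass (adjusted p = 0.177).

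The inhibitors of CDK4 and CDK6 went the other way where they passed. CDKN2B (p15) and CDKN2D (p19) did not pass, with positive differences of 0.42 (limma adjusted p = 0.519) and 0.29 (limma adjusted p = 0.184). CDKN2C (p18) differed by -0.83 ± 0.14 (SE, adjusted p = 0.00332) and CDKN2A, which encodes p16 and also ARF, by -0.47 ± 0.11 (SE, adjusted p = 0.0135). Neither passed under spike-in scaling, with CDKN2C at -1.42 (adjusted p = 0.0819) and CDKN2A at -1.17 (adjusted p = 0.184), and CDKN2A also did not pass with siControl arrays 2 and 4 only (-0.40, adjusted p = 0.0763). The main inhibitors of CDK2 did not pass: CDKN1A (p21) differed by 0.15 ± 0.34 (SE, adjusted p = 0.773) and CDKN1B (p27) by 0.30 ± 0.19 (SE, adjusted p = 0.294). Both had negative differences under spike-in scaling, of -0.42 and -0.32. RBL2 (p130), the pocket protein of resting cells, read 11.45 to 11.73 in siGATA2 and 11.51 to 11.68 in siControl cells, a difference of -0.026 ± 0.10 (SE, adjusted p = 0.875). The groups overlapped for RBL2, as they did for RB1.

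Among 10 E2F and DP factors, 5 were lower, none was higher, and the median was -0.56. E2F1, the best-known activator of the family, read 9.40, 9.21, 9.09 and 9.21 in siGATA2 and 11.17, 11.51, 11.55 and 11.61 in siControl cells. The groups were 1.77 apart and the difference was -2.23 ± 0.13 (SE, n = 4 a group, limma adjusted p = 2.65e-05). The activator E2F2 had a log2 fold change of -2.79, and the repressors E2F7 and E2F8 had log2 fold changes of -2.84 and -2.84. TFDP1, the dimer partner, also passed at -0.65. E2F3, E2F4, E2F5, E2F6 and TFDP2 did not pass, with differences from -0.48 to -0.13.

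Of 13 genes of CDK activation and cyclin turnover, 6 were lower and 1 was higher, with a median of -0.41. SKP2, which marks p27 for degradation, fell by 1.66 ± 0.17 (SE, adjusted p = 0.000238), and its cofactor CKS1B by 1.37 ± 0.090 (SE, adjusted p = 3.93e-05). CDC25A, the phosphatase that activates CDK2, fell by 1.45 ± 0.29 (SE, adjusted p = 0.00754). SKP1, the scaffold of the same ubiquitin ligase, was the one higher, by 0.60 ± 0.14 (SE, adjusted p = 0.0149). That direction turned under spike-in scaling, to -0.21 (adjusted p = 0.883). Of the CDK-activating kinase, CCNH was lower at -0.60 (adjusted p = 0.0195), and CDK7 and MNAT1 did not pass.

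Of the 5 MuvB core genes, whose complex joins p107 or p130 to silence cell cycle genes, 2 were lower and 1 was higher, with a median of -0.43. On its brightest probe LIN9 fell by 1.71 ± 0.10 (SE, adjusted p = 2.69e-05) and RBBP4 by 1.20 ± 0.093 (SE, adjusted p = 7.85e-05). The size of these falls depended on the probe. With the mean over the probes of a gene, the log2 fold change was -0.94 for LIN9 and -0.99 for RBBP4, and both still passed. LIN37 was higher by 0.66 ± 0.089 (SE, adjusted p = 0.00114), and with spike-in scaling by 0.024 (adjusted p = 0.988).

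The later cyclins and CDK1, which act in S phase and mitosis, were lower for 4 of the 4 genes tested, with a median of -1.86. CCNA2 had a log2 fold change of -2.36 ± 0.18 (SE, adjusted p = 7.28e-05), CCNB2 of -1.90, CCNB1 of -1.82 and CDK1 of -0.99. Each of the cyclins had a larger fitted fall than any member. Of 16 E2F target genes of S-phase entry, 15 were lower and none higher, with a median of -1.94. TYMS, which makes thymidylate, had a log2 fold change of -2.55 ± 0.15 (SE, adjusted p = 2.36e-05), the replication fork protein CDC45 of -2.38 and the origin protein ORC1 of -2.27. RRM2, a subunit of ribonucleotide reductase, did not pass at -0.57 (adjusted p = 0.287).

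The scaling of the arrays sets where 0 lies, so the members were also read against the median of all genes. That median was 0.088 as reported, 0.18 with arrays scaled to their 75th percentile, and -0.42 with arrays scaled to spiked-in control probes. Of the genes called, 53.5% were lower as reported and 93.0% under spike-in scaling. Relative to each median, CDK2 was at -1.81, -1.75 and -1.75 under these scalings, RBL1 at -1.66, -1.64 and -1.64, and CDK4 at -1.28, -1.44 and -1.44. The 75th percentile and spike-in scalings each shift all values of an array by a constant. Their values relative to the median therefore agree by construction and are not separate support. RB1 lay at -0.11, -0.23 and -0.23 and CCND1 at -0.17, -0.34 and -0.34, without passing the test under any of the scalings.

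**Figure D4:**
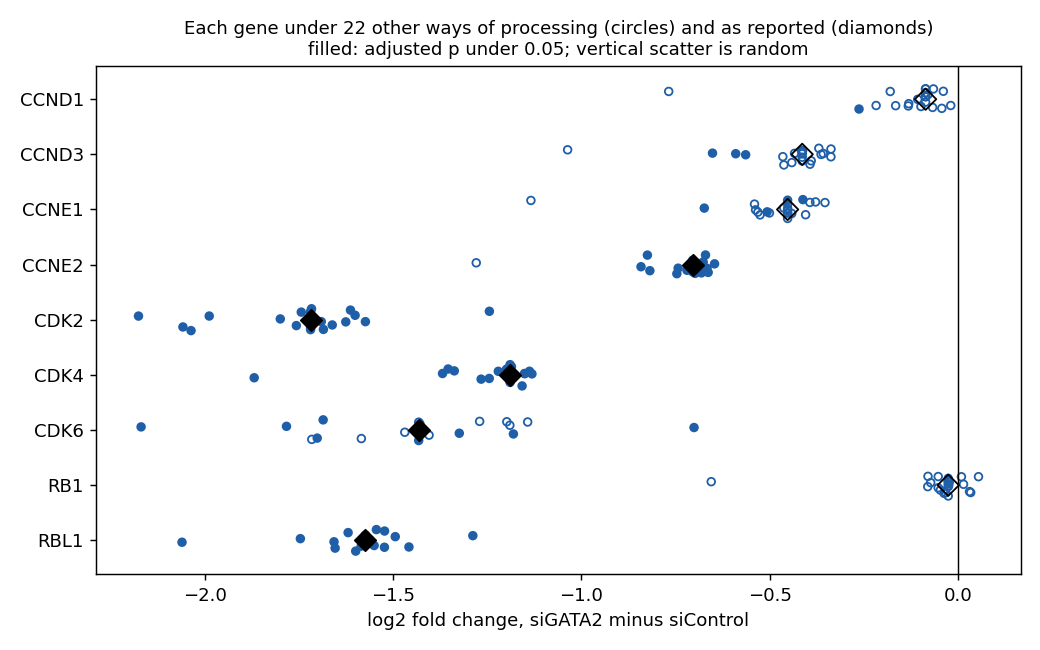
Log2 fold change of siGATA2 against siControl for the 9 tested members as reported (diamonds) and under 22 other ways of processing (circles, filled where the adjusted p was under 0.05). CDK2, CDK4 and RBL1 are filled throughout, CDK6 passes under some and not others, and RB1 lies on both sides of 0.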

How the data were processed

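Per the labels and the methods, the authors labelled LNCaP RNA with Cy3 and read 1-colour Agilent arrays with Feature Extraction 11.0.1.1; the deposited intensity is the spot signal of that software. The array design named in the file headers differs from the one in the methods. A deposited matrix of log2 values, whose columns correlated with the log2 intensity of their own array at 0.985 or more, served as an alternative.

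Unflagged spots of a probe were averaged as log2 processed signal and quantile-normalized over 8 arrays (limma 3.58.1, R 4.3.3). Accessions were named through RefSeq (GRCh38.p14), giving 26364 of 42405 probes a symbol. Probes without annotation or with a mean log2 under 3 were removed, leaving 35514, and each gene was read by its brightest probe. The 28850 genes were tested with lmFit and eBayes and Benjamini-Hochberg adjustment, called at an adjusted p under 0.05. They include entries named only by an accession or locus. Of the 28850, 18507 were well above background on all 8 arrays, as were all 9 tested members. The shares of all genes therefore also cover dim entries and entries without a symbol. No value has a depth, and 4 arrays a group limit the precision. The self-test on simulated data ran first.

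Genes named are the 10 members, GATA2, CDKN1A, CDKN1B, RBL2, E2F1 and the 3 genes nearest in profile to CDK2. In each list up to 3 called genes that fell most and 3 that rose most are named too. CDK1, CDK7, CCNH, MNAT1, RRM2, CDKN2B, CDKN2D, E2F3 to E2F6, TFDP1, TFDP2 and markers were added for completeness. Members and lists were chosen with earlier results of these data known. Replicate numbers gave no clear pairing of the arrays: same-numbered arrays correlated in their deviations at 0.54, -0.31, 0.17 and 0.22. Only replicate 1 had its own number as the best match. Because the arrays differed in quality, these values cannot exclude a pairing by number, and a replicate block was among the alternatives. In the sample titles the letters B and F occur in both groups, and the meaning of the letters is not given. A pairing by letter is therefore not excluded, and the title letter served as a random block among the alternatives. Of the LNCaP markers listed, 7 are given and the others are not reported here.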

Additional observations from a re-analysis of the deposited data

Results flagged for a closer look

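In the siControl group a single array lay far from the other 3 for the members CDK2 and CDK4 and for several other named genes. Without the profile neighbours of CDK2 this held for 6 of 74 groups of 4 arrays examined, all 6 among the 37 siControl groups, where chance gives about 1 in 20. The measure is the gap from that array to its neighbour as a share of the group's range. For CDK2 it was 0.843, with siControl 1 at 7.64 and the others at 8.62 to 8.80, and for CDK4 it was 0.905, with 13.90 against 14.46 to 14.52. BTG1, at 0.839 (12.40 against 13.41 to 13.60), and POLE4, at 0.848 (13.37 against 14.10 to 14.23), were picked for their likeness to CDK2 over the same arrays, so their low siControl 1 follows from the choice and adds nothing. CDC25A had 0.940 (9.97 against 11.01 to 11.07), CCNB1 0.870 (13.81 against 14.25 to 14.32) and ORC1 0.904 (7.53 against 8.68 to 8.80), again with siControl 1 the low array. SKP1 was the exception, at 0.871, where siControl 2 was high at 16.06 and the others at 15.95 to 15.96. The genes share arrays, so these are not separate events.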

How the results depend on the processing

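CDK2, CDK4 and RBL1 kept their direction and call under all 22 alternatives, with log2 fold changes of -2.18 to -1.24, -1.87 to -1.13 and -2.06 to -1.29. Array weights gave 8 members lower in place of 5, adding CCND1 at -0.26 (adjusted p = 0.0412), CCND3 at -0.65 and CCNE1 at -0.67 (adjusted p = 0.00119). They gave lists with 8 E2F and DP factors lower in place of 5, 4 MuvB genes lower in place of 2 and 2 genes of CDK activation higher in place of 1. Calls rose among all genes too, to 26.1% lower and 27.9% higher from 14.2% and 12.3%. CCNE1 also passed at -0.51 with normexp, at -0.45 with an intensity trend and at -0.41 with the title letter as a random block, and CCND3 at -0.56 with siControl arrays 2 and 4 only. Spike-in scaling left 0 pathway genes higher in place of 3 and 0 CDK inhibitors lower in place of 2 (1 with siControl arrays 2 and 4 only). Of all genes, 0.489% were higher and 6.52% lower under spike-in scaling, so these losses are not particular to the pathway. That scaling put CCNE2 at -1.28 (adjusted p = 0.117), CDKN1A at -0.42, CDKN1B at -0.32 and SKP1 at -0.21. CDK6 did not pass at -1.43 without a filter, with the methods' t-test or with the replicate block (adjusted p = 0.0537, 0.0886 and 0.0529), at -1.19 with the slide row as a block or at -1.72 with siControl arrays 2 and 4 only. The replicate block changed no other member's call. RB1 was 0.055 with the row block and 0.031 with siControl arrays 2 and 4 only, CDKN1A -0.40 with array weights and -0.12 with those 2 controls, RBL2 0.025 with normexp and 0.028 with array weights, and CDK4 minus CDK6 -0.50 with normexp. The causes were not tested.

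Leaving out each array in turn gave 4 to 5 members lower and 0 higher, with 3 to 4 lower at 2-fold, and 33 to 36 pathway genes lower and 3 higher. Ranges were -0.18 to -0.019 for CCND1, -0.59 to -0.34 for CCND3, -0.54 to -0.35 for CCNE1, -0.82 to -0.65 for CCNE2, -1.70 to -1.14 for CDK6, -0.079 to 0.034 for RB1, -0.065 to 0.40 for CDKN1A and -0.075 to 0.017 for RBL2. The pair changes ranged from 0.26 to 0.41 for CCND1 minus CCND3, 0.16 to 0.37 for CCNE1 minus CCNE2, -0.058 to 0.52 for CDK4 minus CDK6 and 1.50 to 1.63 for RB1 minus RBL1. All arrays share 1 slide, so it could not serve as a block. CCND2 is limited by signal near background.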
